A study of Mus musculus with 4 samples.

Results

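The genes described here are 10 transcription factors that set or maintain the identity of pancreatic islet cells: Pdx1, Nkx6-1, Nkx2-2, Neurod1, Mafa, Isl1, Pax6, Rfx6, Myt1 and Foxa2. They were chosen by name, as the rows of these symbols among 21594 gene symbols in 4 single-cell matrices. The matrices hold counts of unique molecular identifiers (UMIs, tags that count each captured RNA molecule once) from dissociated mouse islets, made with an inDrops droplet method and the TruDrop library protocol. The 2 mutant samples came from Atf4F/F; Ins1Cre mice, which carry floxed alleles of the stress-response transcription factor Atf4 and a Cre recombinase named for the beta cell gene Ins1. The 2 control samples came from Atf4F/F mice, which carry the same floxed alleles and no Cre. All mice were 2 months old, and each sample was a pool, given as 2 males and 2 females in the study's design text and as 3 to 4 mice in its protocol. Cells with and without a tdT reporter were sequenced together, and 10% human K562 leukaemia cells had been mixed in before encapsulation. The p-values between genotypes within a class therefore measure the spread between 2 pools per group, not between mice. Those between cell classes measure how class differences vary over the 4 pools, again not between mice.

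The pancreatic endocrine factors act in an overlapping network. Neurod1, Nkx2-2, Isl1, Pax6, Rfx6, Myt1 and Foxa2 are used by several or all islet endocrine lineages, while Pdx1, Nkx6-1 and Mafa are known for their action in mature beta cells, where they activate insulin and genes of glucose sensing and repress programmes of other islet cells. Pdx1 is also made by delta cells.

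Of 11114 barcodes, those with 500 or more genes and a mitochondrial share below 20% were kept: 1403 and 1714 cells for mutants 1 and 2, against 1997 and 1881 for controls 1 and 2, and the libraries held 13706563 to 17655893 UMIs. Classes were set by hormone counts, so that none of the 10 genes took part. A cell was beta-like when Ins1 and Ins2 made up at least 10% of its UMIs, and alpha-like, delta-like or PP-like when Gcg, Sst or Ppy made up at least 2%. Cells over more than 1 of these limits (1495) were kept apart as mixed, and no doublet caller was run. The beta-like class held 804 and 894 cells in the mutants, against 1317 and 1216 in the controls. The other endocrine classes were smaller, with 698 alpha-like, 207 delta-like and 96 PP-like cells over the 4 samples. Of the beta-like cells, 111 lay between the limit and 20% insulin. Any pair of libraries shared 41 to 82 barcode sequences. Markers that took no part in the limits followed the class names: over the 4 samples and without TMM scaling, Ucn3 was at 1102 CPM in beta-like cells and at most 23.4 CPM in the other 3 classes, and Hhex at 333 CPM in delta-like cells and at most 14.4 CPM elsewhere. The PP-like label is the weakest, since Aqp3 was at 0 there and Etv1, at 455 CPM, was also at 367 CPM in alpha-like cells.

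The targeted gene was checked first. Atf4 had 42 and 1178 UMIs in the beta-like sums of mutants 1 and 2, against 3949 and 4723 UMIs in controls 1 and 2. Mutant 2 thus stands apart from mutant 1. In beta-like cells the median log2 fold change of the tested genes and the number of calls are also given without it. The single-gene values and intervals by genotype include it.

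Promoter sequences are shown for Pdx1 and Nkx6-1, whose RNA set beta-like cells apart, for Pax6, the promoter of the set that held a cAMP response element, and for the insulin gene Ins1, which several of the factors regulate. They are the 250 bases before the gene start in RefSeq, build GRCm38.p6, read 5′ to 3′ on the gene's strand: chr5:147269847-147270096 on the + strand, chr5:101664712-101664961 on the - strand, chr2:105668646-105668895 on the + strand and chr19:52264047-52264296 on the + strand. Capitals mark the E-box letters CANNTG, the motif bound by Neurod1 and its partners, in Pdx1 and Ins1, and the cAMP response element TGACGTCA in Pax6. In Nkx6-1 neither motif was found, so it has no capitals.
Pdx1: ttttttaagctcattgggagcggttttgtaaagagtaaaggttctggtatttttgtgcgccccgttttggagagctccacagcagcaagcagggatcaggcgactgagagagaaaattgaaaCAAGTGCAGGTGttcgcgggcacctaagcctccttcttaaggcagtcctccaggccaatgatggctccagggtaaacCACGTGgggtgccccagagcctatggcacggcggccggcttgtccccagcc
Nkx6-1: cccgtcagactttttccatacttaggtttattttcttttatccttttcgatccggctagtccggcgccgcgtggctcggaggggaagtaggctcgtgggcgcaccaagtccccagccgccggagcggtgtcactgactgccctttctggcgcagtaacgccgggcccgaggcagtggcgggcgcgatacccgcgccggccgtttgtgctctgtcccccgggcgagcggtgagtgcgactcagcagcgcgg
Pax6: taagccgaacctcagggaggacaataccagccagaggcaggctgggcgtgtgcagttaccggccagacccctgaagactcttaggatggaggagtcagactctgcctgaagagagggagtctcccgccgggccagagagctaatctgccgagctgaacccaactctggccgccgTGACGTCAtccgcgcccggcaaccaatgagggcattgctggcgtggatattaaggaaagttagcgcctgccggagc
Ins1: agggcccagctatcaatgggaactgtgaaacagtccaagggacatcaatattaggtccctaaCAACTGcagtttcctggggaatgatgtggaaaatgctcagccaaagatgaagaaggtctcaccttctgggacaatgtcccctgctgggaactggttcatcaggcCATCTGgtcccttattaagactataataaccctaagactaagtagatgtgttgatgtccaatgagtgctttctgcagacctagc

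RefSeq promoters were matched for 9 of the 10 symbols, with 14 start sites. On either strand, the E-box letters CANNTG stood in 8 of these 14 windows, against 66.2% of 32851 promoter windows of the same length. In Pdx1 the E-boxes began 128, 122 and 51 bases before the start, and the first and second of them adjoin. The Pax6 element began 76 bases before the start, and it was the 1 window of 14 with TGACGTCA, which 1.55% of all windows held. The letters TGATGNAAN, the element through which Atf4 acts on stress genes, were in 0 of 14 windows and in 3.44% of all. The homeodomain core TAATTA was in 0 of 14 and in 4.84% of all. By GENCODE vM21 on GRCm38, Pdx1 and Nkx6-1 lie on chromosome 5, Nkx2-2, Neurod1, Pax6, Myt1 and Foxa2 on chromosome 2, Rfx6 on chromosome 10, Isl1 on chromosome 13 and Mafa on chromosome 15. In that annotation Pdx1 starts at base 147269959 and Nkx6-1, on the - strand, at base 101664996. By these starts the Pdx1 window shown lies partly inside the gene and the Nkx6-1 window wholly inside it.

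Pdx1, which activates Ins1, Ins2 and the glucose transporter gene Slc2a2, was highest in beta-like cells in every sample. Levels across classes are CPM, a gene's UMIs scaled to a common library total, after TMM scaling over the 16 sums of class and sample, and are compared between classes, not between genes. Beta-like sums held 209 and 233 CPM in the mutants and 223 and 246 CPM in the controls. Alpha-like sums held 9.74 and 10.7 CPM in the mutants and 3.99 and 2.67 CPM in the controls. Delta-like sums held 120 and 89.9 CPM in the mutants and 134 and 125 CPM in the controls. The 3 classes did not overlap. PP-like sums, at 29.4 and 14.2 CPM in the mutants and 29.6 and 37.0 CPM in the controls, lay between alpha-like and delta-like and rested on 5, 1, 7 and 3 UMIs. The log2 difference of beta-like over delta-like cells was 1.00 (SE 0.165, adjusted p = 5.37e-06, edgeR's quasi-likelihood test, Benjamini-Hochberg adjusted over 8071 genes). Over alpha-like cells it was 4.95 (SE 0.192, adjusted p = 4.26e-24 by edgeR), and over PP-like cells 2.97 (SE 0.273, adjusted p = 1.53e-11 by edgeR). Over 17 alternatives the Pdx1 difference from alpha-like cells ran between 2.15, with Leiden clusters as classes, and 6.14, with the controls alone, and kept its call. The Pdx1 difference from PP-like cells was 0.45 with Leiden clusters and lost its call (adjusted p = 0.0579 by edgeR).

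Nkx6-1, a repressor that keeps beta cells from taking on alpha and delta cell programmes, separated beta-like cells from all other classes. Beta-like sums held 350 and 324 CPM in the mutants and 344 and 416 CPM in the controls. PP-like sums held 76.3 and 99.4 CPM in the mutants and 97.3 and 148 CPM in the controls. Alpha-like and delta-like sums held 16.1 to 36.0 CPM in the 4 samples. Every beta-like sum was above every other sum, and every PP-like sum was above every alpha-like and delta-like one. The log2 difference of beta-like cells was 3.82 over alpha-like (SE 0.139, adjusted p = 4.76e-25), 3.83 over delta-like (SE 0.212, adjusted p = 1.70e-18) and 1.84 over PP-like cells (SE 0.176, adjusted p = 4.96e-11), all by edgeR. Delta-like cells were 1.99 below PP-like cells on this scale (log2 difference -1.99, SE 0.331, adjusted p = 2.94e-05 by edgeR), while alpha-like and delta-like cells did not differ past the threshold of 0.05. With Leiden clusters the Nkx6-1 differences of beta-like cells kept their calls but were smaller, at 1.95 over alpha-like, 1.24 over delta-like and 0.52 over PP-like cells.

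**Figure D1:**
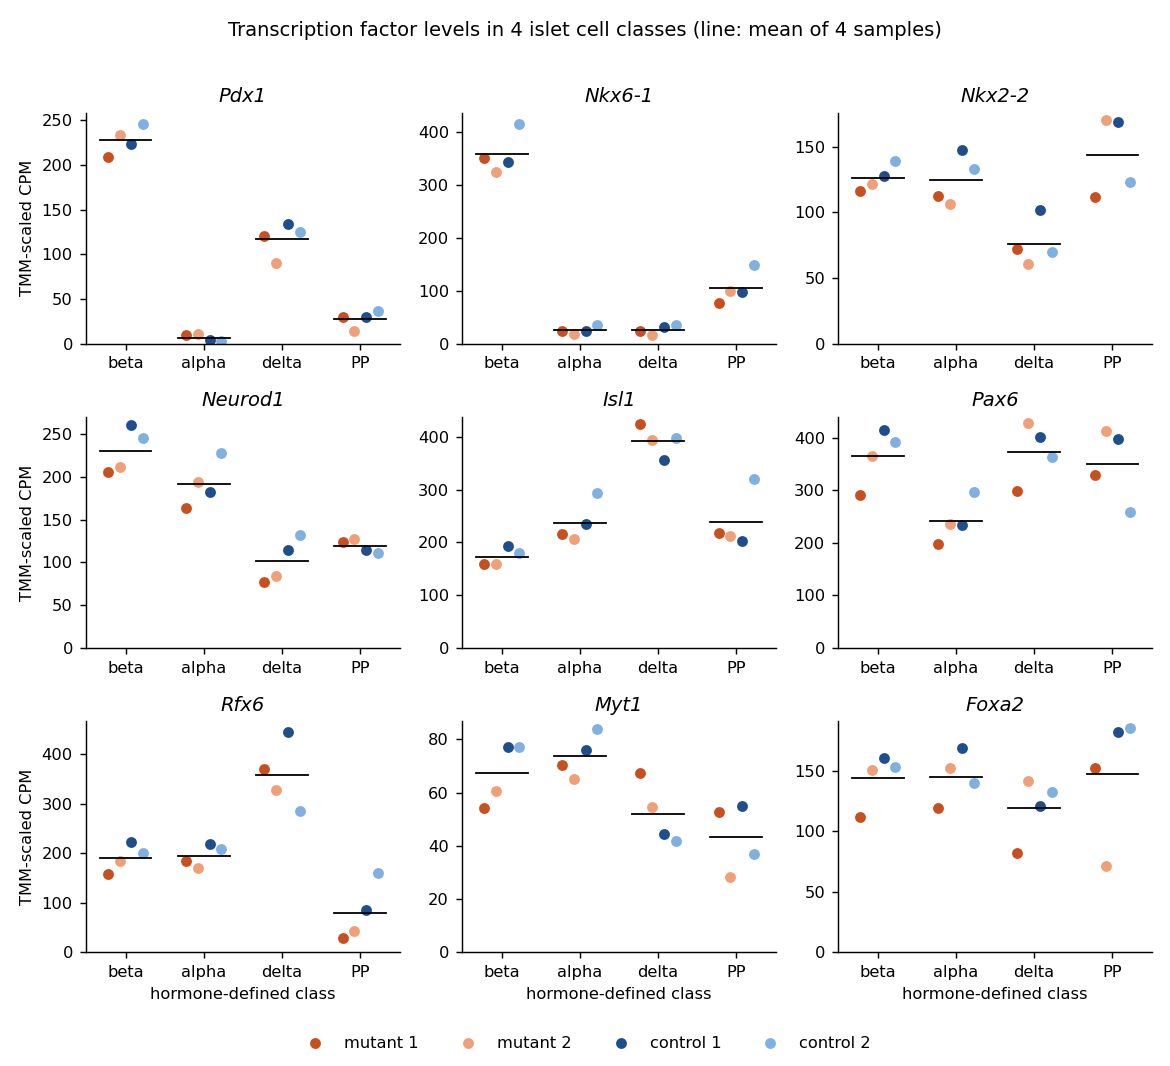
Levels of 9 transcription factor genes (y axis: TMM-scaled CPM, from 0) in the beta-, alpha-, delta- and PP-like sums of each sample (points; mutants in orange, controls in blue; line: mean of 4 samples). Pdx1 and Nkx6-1 were highest in beta-like cells in every sample, while Isl1 averaged 393 CPM in delta-like cells and Rfx6 averaged 79.2 CPM in PP-like cells.

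Free RNA in the droplets can place UMIs of a beta cell gene in other cells, so both genes were set against insulin. With no scaling but the total, the insulin level outside beta-like cells was 1.66% to 3.03% of the beta-like level of the same sample in alpha-like cells, 1.76% to 4.03% in delta-like cells and 1.71% to 4.96% in PP-like cells. The hormone limits themselves cap it. Pdx1 in alpha-like cells stood at 5.24% and 5.35% of the beta-like level in the mutants, against 2.22% and 1.30% in the controls. Insulin stood at 2.19% and 1.66% in the same mutant sums, below Pdx1, and at 3.03% and 2.48% in the control sums, above Pdx1. The Pdx1 values rest on 9 and 12 UMIs in the mutants and 3 and 2 UMIs in the controls, with overlapping counting intervals, and the part of free RNA in them was not tested. Nkx6-1 stood at 6.73% to 10.4% in alpha-like cells, above insulin in each sample, and at 23.8% to 46.1% in PP-like cells. Pdx1 in delta-like cells stood at 47.5% to 76.4%, far above insulin. In endothelial-like cells both genes had 0 UMIs in all 4 samples, but these sums hold only 47605 to 137092 UMIs, so low levels could be missed. In macrophage-like cells Pdx1 stood at 0% in all 4 samples. Nkx6-1 stood there at 18.6% in control 1, from 7 cells with 20000 UMIs, and at 0% in mutant 1, mutant 2 and control 2.

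**Figure D2:**
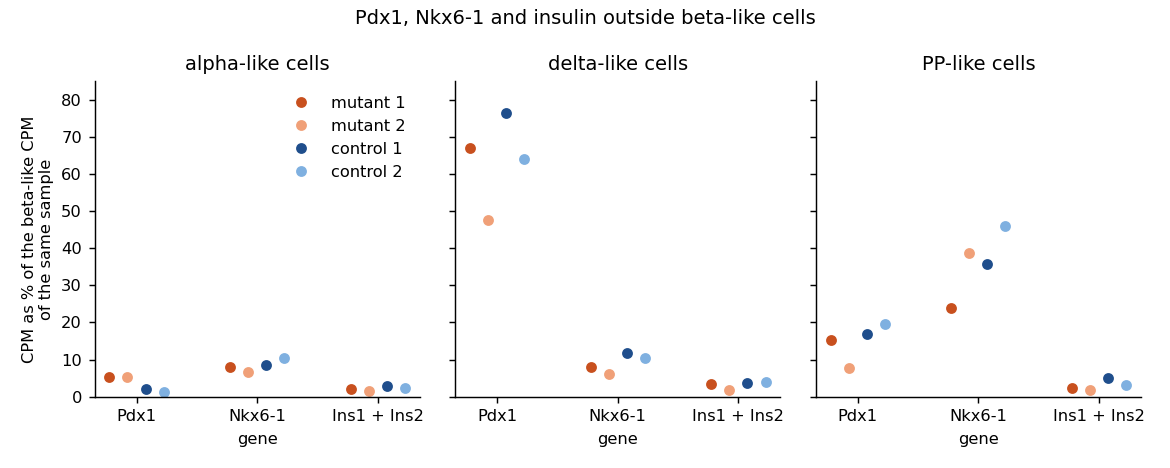
Level of Pdx1, Nkx6-1 and insulin (Ins1 plus Ins2) outside beta-like cells, as a percentage of the unscaled beta-like CPM of the same sample (y axis), in alpha-, delta- and PP-like cells. Points are samples; Pdx1 in delta-like cells (47.5% to 76.4%) and Nkx6-1 in PP-like cells (23.8% to 46.1%) lie above the insulin values, which stay between 1.66% and 4.96%.

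Mafa, the third factor of mature beta cells and an activator of insulin transcription, was almost undetected. It had a row in 3 of the 4 matrices. Beta-like cells held 3 and 0 UMIs of it in the mutants, against 0 and 1 in the controls, that is 4 among 43745956 UMIs, or 0.0914 CPM (exact 95% Poisson interval 0.0249 to 0.234, which covers counting error only). Alpha-like, delta-like and PP-like cells held none, which allows up to 0.833, 3.76 and 5.39 CPM over the 4 samples. These values count reads assigned to Mafa in the deposited matrices. Whether the annotation used for counting covers the end of the transcript that the method captures was not tested, so they may not be the level of Mafa RNA. The gene did not pass the filter on low counts, and its response to genotype was not tested.

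The basic helix-loop-helix factor Neurod1 and the homeodomain factor Nkx2-2, both needed in beta cells to keep insulin expressed, were shared more widely. Neurod1 averaged 230 ± 26.6 CPM in beta-like, 192 ± 27.1 in alpha-like, 102 ± 26.1 in delta-like and 119 ± 7.77 in PP-like cells (SD, n = 4 each). Its beta-like levels were above the delta-like levels by 1.22 (log2, SE 0.162, adjusted p = 7.37e-08 by edgeR) and above the PP-like levels by 0.95 (SE 0.178, adjusted p = 6.12e-05 by edgeR). The difference from alpha-like cells, 0.26 (SE 0.103, adjusted p = 0.0322 by edgeR), passed narrowly, and the 2 classes overlapped between samples. With library totals as the only scaling it was 0.01, and without control 1 its adjusted p was 0.189. The difference of Neurod1 from PP-like cells was 0.06 with Leiden clusters (adjusted p = 0.831 by edgeR). Nkx2-2 averaged 126 ± 9.54 CPM in beta-like, 125 ± 18.9 in alpha-like, 76.2 ± 17.8 in delta-like and 144 ± 30.6 in PP-like cells. Delta-like cells stood below beta-like cells in every sample (log2 difference of beta-like over delta-like 0.76, SE 0.182, adjusted p = 0.00116 by edgeR), and the other 3 classes were not separated from each other. Without TMM scaling the delta-like level of Nkx2-2 was 102% of the beta-like level in control 1. It was 71.9%, 61.8% and 63.1% in mutant 1, mutant 2 and control 2.

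Isl1, a LIM-homeodomain factor of all endocrine lineages, ran in another order. Beta-like sums held 159 and 160 CPM in the mutants and 194 and 180 CPM in the controls, and delta-like sums 424 and 395 CPM in the mutants and 357 and 397 CPM in the controls. No beta-like sum reached any sum of another class. The log2 difference of beta-like over delta-like cells was -1.21 (SE 0.124, adjusted p = 1.71e-10) and over alpha-like cells -0.45 (SE 0.105, adjusted p = 0.000444), both by edgeR. Alpha-like and PP-like cells, at 238 ± 39.4 and 238 ± 55.1 CPM, did not differ past the threshold. Pax6, a paired-box factor needed for hormone gene expression, was at 365 ± 53.7 CPM in beta-like, 241 ± 41.5 in alpha-like, 372 ± 55.8 in delta-like and 349 ± 70.3 in PP-like cells. Alpha-like cells stood lowest (log2 difference of beta-like over alpha-like 0.60, SE 0.106, adjusted p = 7.40e-06 by edgeR), and beta-like, delta-like and PP-like cells were not separated.

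Rfx6, a winged-helix factor that supports calcium channel and insulin gene expression in beta cells, was highest in delta-like cells. Beta-like sums held 158 and 183 CPM in the mutants and 223 and 201 CPM in the controls. Delta-like sums held 371 and 328 CPM in the mutants and 446 and 286 CPM in the controls, and PP-like sums 29.4 and 42.6 CPM in the mutants and 84.6 and 160 CPM in the controls. Delta-like sums lay above beta-like sums in all samples, and 1 PP-like control sum reached the beta-like range. The log2 difference of beta-like over delta-like cells was -0.92 (SE 0.140, adjusted p = 1.14e-06 by edgeR) and over PP-like cells 1.41 (SE 0.236, adjusted p = 1.02e-05 by edgeR). Alpha-like cells, at 195 ± 21.8 CPM, did not differ from beta-like cells past the threshold. The zinc finger factor Myt1, which acts in endocrine differentiation, averaged 67.3 ± 11.7, 73.8 ± 8.11, 52.1 ± 11.6 and 43.3 ± 12.8 CPM in beta-, alpha-, delta- and PP-like cells (SD, n = 4 each). The forkhead factor Foxa2, which opens chromatin at Pdx1 and other islet genes, averaged 144 ± 21.7, 145 ± 21.0, 119 ± 26.2 and 148 ± 53.2 CPM in the same order. No pair of classes differed past the threshold for Myt1 or Foxa2.

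In count, 4 of the 9 tested genes were higher and 1 lower in beta-like than in alpha-like cells, where 24.6% of 8071 tested genes were called higher and 25.3% lower. Against delta-like cells 4 were higher and 2 lower, with 14.1% and 15.0% of all genes. Against PP-like cells 4 were higher and 0 lower, with 10.9% and 10.7% of all genes. With library totals as the only scaling, edgeR called 3 of the 9 higher and 4 lower against alpha-like cells (1191 and 3236 of 8071 genes). It then called 3 and 3 against delta-like cells (598 and 2189 genes) and 4 and 1 against PP-like cells (498 and 1425 genes). Among the other classes, edgeR called 6 of 9 for alpha-like against delta-like cells (19.8% of all genes), 5 of 9 for alpha-like against PP-like cells (10.4%) and 5 of 9 for delta-like against PP-like cells (9.30%). The PP-like results rest on 96 cells. With Leiden clusters in place of hormone limits, 1 of 9 genes instead of 4 was called between beta-like and PP-like cells and the sign turned for Rfx6 (-0.13). The PP-like cluster then held 307 mixed cells and 9 of the 96 PP-like ones, while 75 of the 96 fell in the alpha-like cluster, with 672 alpha-like cells.

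Detection was also counted per cell. After thinning each cell to 3000 UMIs, which left out 775 of 4231 beta-like cells as shallower, Pdx1 had a UMI in 38.4% of beta-like, 1.40% of alpha-like, 20.2% of delta-like and 6.90% of PP-like cells. Nkx6-1 had one in 53.6%, 7.71%, 8.08% and 25.9% of these classes. Neurod1, higher in beta-like than alpha-like sums, had one in 38.1% of beta-like and 39.95% of alpha-like cells. Isl1 had one in 31.7% of beta-like and 71.7% of delta-like cells, and Rfx6 in 34.5% of beta-like and 66.7% of delta-like cells. In unthinned beta-like cells the shares were 63.0% for Pdx1 and 72.6% for Nkx6-1, at a median of 7177 UMIs. Endothelial-like cells, which should lack these factors, had 0 of 30 cells with a UMI of any of the 10 genes, which allows a share of up to 10%. Their unthinned median was 2104 UMIs, and the unthinned cells, 109 in all, held 5 UMIs of Isl1, 3 of Neurod1, 2 of Rfx6 and 1 each of Pax6 and Foxa2. Isl1 there stood at 0% and 9.91% of the beta-like level in the mutants, against 13.9% and 14.8% in the controls. Among thinned macrophage-like cells, 1 of 13 and 1 of 8 had a UMI of any of the genes in the mutants, and 0 of 3 and 0 of 4 in the controls. A thinned beta-like cell held a UMI of 3.05 and 3.08 of the 10 genes on average in the mutants, against 3.20 and 3.32 in the controls.

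**Figure D3:**
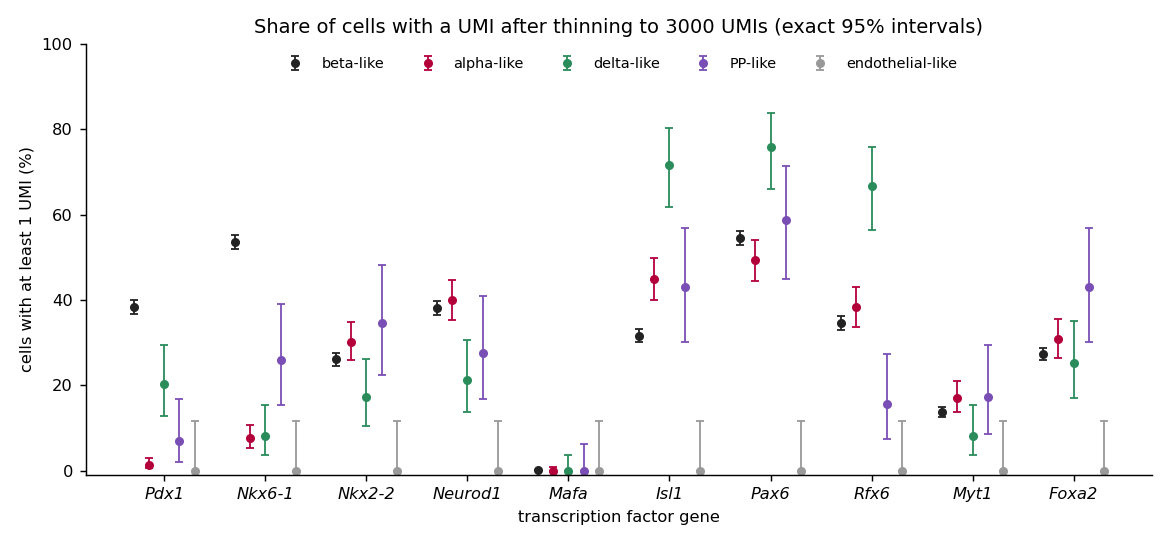
Share of cells with at least 1 UMI (y axis, %) of each of the 10 genes after thinning to 3000 UMIs, pooled over the 4 samples, with exact 95% binomial intervals for counting error. Pdx1 (38.4%) and Nkx6-1 (53.6%) were most widely detected in beta-like cells, Isl1, Pax6 and Rfx6 in delta-like cells, and Mafa in 0.0579% of beta-like cells.

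For each gene the 3 genes with the most similar profile were found by Pearson correlation of log2 CPM over the 16 sums, among 4493 genes with a mean log2 CPM of at least 5. The sums share 4 libraries and 4 classes, so r is a description. Pdx1 was most like Hadh (r = 0.969), S100a1 (0.967) and Sdk2 (0.944), and Nkx6-1 most like Slc35b1 (0.947), Hepacam2 (0.944) and P4hb (0.943). Hadh averaged 1049 CPM in beta-like, 30.6 in alpha-like and 526 in delta-like cells, the order of Pdx1. Isl1 was most like Arg1 (0.921), Rbp4 (0.919) and App (0.909), Neurod1 most like Nell1 (0.915), Ppm1b (0.892) and Slc30a8 (0.882), and Rfx6 most like 2510039O18Rik (0.906), Ctsf (0.900) and Mrln (0.878). Nkx2-2 came with Vamp3, Gfpt1 and Cotl1 (0.859 to 0.927), Myt1 with Ulk2, BC023829 and Kifap3 (0.859 to 0.885), Foxa2 with Sgpp2, R3hdm4 and Cops8 (0.840 to 0.873) and Pax6 with Tusc3, Mff and Sil1 (0.801 to 0.832). None of these was another of the 10 genes.

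Within beta-like cells the genotypes were compared to ask whether the network differed between mutants and controls. The mutants carry Ins1Cre and the controls no Cre, so loss of Atf4 and presence of Cre cannot be told apart. None of the 9 tested genes passed the test: edgeR called 0 of 9, where it called 58 of 13605 genes, or 0.426% of all genes, in either direction (44 higher and 14 lower). All 9 estimates were below 0, with a median log2 fold change of -0.26 against 0.01 over all tested genes. Of the 9, 3 had an unadjusted edgeR p below the 0.05 threshold, as had 1887 of all 13605 tested genes. Neither of the other tools, DESeq2 and limma-voom, called any of the 9. Levels here are CPM after TMM scaling over the 4 beta-like sums alone.

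Pdx1 had 174 and 195 CPM in the mutants, against 189 and 204 CPM in the controls, and the groups overlapped. Its log2 fold change was -0.09 (SE 0.126, adjusted p = 0.807 by edgeR), a fold of 0.939 with a 95% interval of 0.770 to 1.15. Nkx6-1 had 291 and 271 CPM in the mutants, against 290 and 344 CPM in the controls. These groups overlapped too, with a log2 fold change of -0.17 (SE 0.131, adjusted p = 0.606 by edgeR) and a fold interval of 0.721 to 1.09. Levels below 0.770 of the control level for Pdx1 and below 0.721 for Nkx6-1 lie outside these intervals.

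Myt1 had the largest estimate. It was at 45.1 and 50.6 CPM in the mutants, against 65.0 and 63.9 CPM in the controls, so that both mutants lay below both controls. The log2 fold change was -0.43 (SE 0.120, unadjusted p = 0.00645, adjusted p = 0.183, edgeR's quasi-likelihood test), a fold of 0.742 with a 95% interval of 0.614 to 0.897. Rfx6 had 131 and 153 CPM in the mutants, against 189 and 166 CPM in the controls, without overlap (log2 fold change -0.32, SE 0.136, adjusted p = 0.349 by edgeR). Neurod1 had 170 and 176 CPM in the mutants, against 220 and 203 CPM in the controls, again without overlap (-0.29, SE 0.120, adjusted p = 0.346 by edgeR).

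Pax6 had 242 and 305 CPM in the mutants, against 350 and 324 CPM in the controls (log2 fold change -0.30, adjusted p = 0.393 by edgeR). Foxa2 had 93.2 and 126 CPM in the mutants, against 136 and 126 CPM in the controls (-0.26, adjusted p = 0.502 by edgeR). In both genes mutant 1 was the low sample, and mutant 2 came close to a control. Isl1 had 132 and 134 CPM in the mutants, against 164 and 149 CPM in the controls (-0.23, adjusted p = 0.433 by edgeR). Nkx2-2 had 97.02 and 102 CPM in the mutants, against 108 and 115 CPM in the controls (-0.16, adjusted p = 0.588 by edgeR). In all, 7 of the 9 genes had both mutants below both controls, an arrangement seen in 22.7% of all tested genes. None had both above, as 23.1% of all genes did, and groups did not overlap in 45.7% of all genes.

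**Figure D4:**
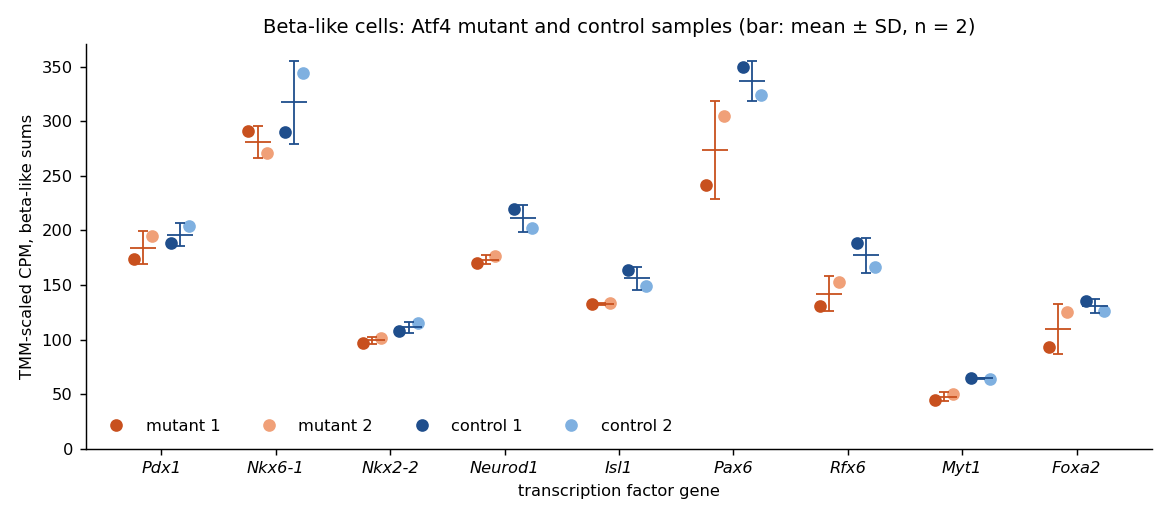
Level of each gene in the beta-like sums of the 2 mutants (orange) and 2 controls (blue), in TMM-scaled CPM from 0 (bars: mean ± SD, n = 2 each). Groups overlap for Pdx1 and Nkx6-1; both mutants lie below both controls for the other 7 genes, and no difference passed the test.

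The estimates depend on the scaling. With library totals alone the median over all genes moved to 0.12 and that of the 9 genes to -0.15, and Pdx1 turned to 0.02. Beta-like cells were deeper in the mutants (median 8373 and 8526.5 UMIs) than in the controls (6135 and 6881.5 UMIs), and insulin made up a median of 37.7% and 40.7% of their counts in the mutants, against 43.3% and 42.3% in the controls. In cells over 8000 UMIs the median of the 9 genes was -0.27. Without mutant 2, which kept Atf4 UMIs, it was -0.33, and without mutant 1 it was -0.21; edgeR called 0 of 9 in each case. The summed levels of several marker lists of other cell types moved with genotype in the beta-like sums. For acinar cells 10 or 11 of 11 genes were detected in each sum, with a summed level of 30.2 and 47.2 CPM in the mutants against 116 and 216 CPM in the controls, and Prss1 at 0 in 3 of the 4 sums. EdgeR called 6 of the 10 tested acinar genes lower. The summed level of the 10 macrophage markers, all detected, was 86.96 and 108 CPM in the mutants against 145 and 139 CPM in the controls. Most of it was C1qa, at 49.9 and 87.0 CPM in the mutants against 133 and 123 CPM in the controls after TMM scaling. Of 9 tested macrophage markers, 6 had estimates above 0 and 3 below, with a median log2 fold change of 0.44. The summed level of the 6 duct markers, of which 5 or 6 were detected, was 313 and 269.6 CPM in the mutants against 214 and 221 CPM in the controls. No tested gene of the macrophage and duct lists was called, and 1 of 9 alpha cell markers, Gc, was called higher. The part of depth and of these markers in the estimates was not tested.

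Shares of beta-like cells with a UMI were compared between genotypes without a test. At 3000 UMIs, with 130 and 121 shallower cells left out in the mutants, against 285 and 239 in the controls, Neurod1 had a UMI in 34.4% and 35.2% of mutant cells and in 40.4% and 40.6% of control cells. Rfx6 had one in 30.7% and 32.5% of mutant cells and in 36.2% and 36.9% of control cells. Myt1 had one in 10.7% and 12.3% of mutant cells and in 15.99% and 14.2% of control cells. Of the 9 genes, 4 had both mutants below both controls (Neurod1, Rfx6, Myt1 and Pax6) and the other 5 overlapped, among them Pdx1, whose mean share was 1.29 points higher in the mutants. The share of all genes with such an arrangement was not computed. Unthinned shares of the same genes did overlap, as for Rfx6 at 59.8% and 59.6% of mutant cells and 57.0% and 60.1% of control cells. At 1500 UMIs the mutant shares of Rfx6 stayed below both controls, with a mean difference of -3.98 points, as did those of Foxa2, while Neurod1, Myt1 and Pax6 overlapped and Isl1 had both mutants above both controls.

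The genotypes were also compared in the other endocrine classes. In alpha-like cells the estimates of all 8 tested genes were below 0, with a median of -0.28, and edgeR called 0 of them (0.240% of 8738 genes were called). Endothelial markers moved with genotype in these cells: 8 or 9 of the 10 genes were detected in each sum, with a summed level of 217 and 202 CPM in the mutants against 63.2 and 50.03 CPM in the controls and Cldn5 at 0 in all 4, and 4 of 7 tested were called higher. Their part in the estimates was not tested. In delta-like cells 6 of 8 were below 0, with a median of -0.10 and 0 called (0.149% of all genes), and in PP-like cells 5 of 7, with a median of -0.18 and 0 called (0.0967%). The largest was Rfx6 in PP-like cells, at 37.8 and 59.6 CPM in the mutants, against 107 and 222 CPM in the controls. There both mutants lay below both controls, from 32 and 14 mutant cells against 38 and 12 control cells (log2 fold change -1.69, SE 0.689, unadjusted p = 0.0263, adjusted p = 0.838 by edgeR). Delta cell markers moved with genotype in the same PP-like sums: 3 to 5 of the 7 genes were detected in each, with Ghsr at 0 in all 4, and their summed level was 953 and 661 CPM in the mutants against 3635 and 5799 CPM in the controls. Of 3 tested, 1 was called lower, the hormone gene Sst that sets the delta-like limit. Rfx6 was itself highest in delta-like cells, and the part of these markers in its estimate was not tested.

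The difference of the effects was tested directly, as the effect in beta-like cells minus the mean effect in the other 3 classes. EdgeR called 0 of 9 genes (0.248% of all genes were called), with a median difference of -0.06 and a lowest adjusted p of 0.808. Against alpha-like cells alone it called 0 of 9 as well (0.297% of all genes), with a median of -0.05. The lowest p there was that of Pdx1, whose alpha-like UMIs numbered 9 and 12 in the mutants, against 3 and 2 in the controls (difference -1.69, SE 0.655, unadjusted p = 0.0127, adjusted p = 0.594 by edgeR).

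**Figure D5:**
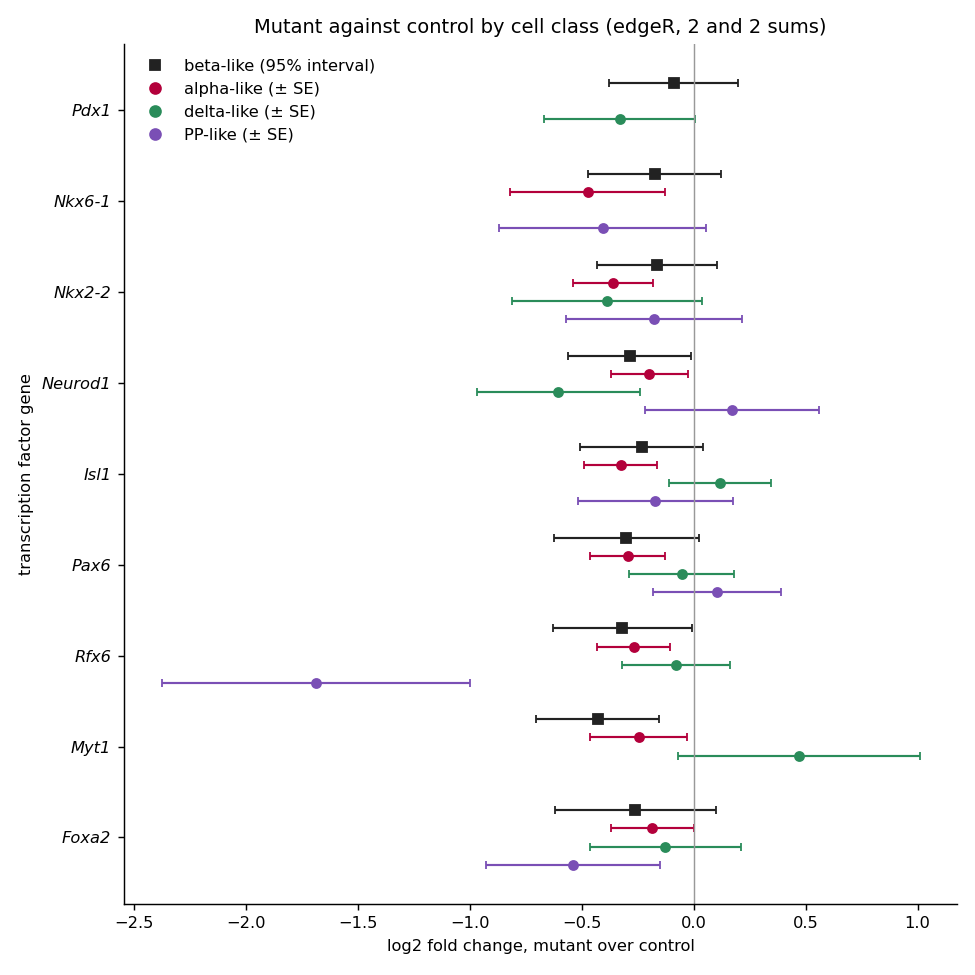
Log2 fold change of mutant over control (x axis) for each gene in beta-like cells (squares, with 95% intervals) and in alpha-, delta- and PP-like cells (circles, ± SE), from edgeR fits of 2 mutant and 2 control sums per class; genes that missed the count filter in a class have no point. All 9 beta-like and 8 alpha-like estimates lie below 0; the largest is Rfx6 in PP-like cells, at -1.69.

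Genes around the 10 factors were read in the same beta-like fit. Of 44 other islet transcription factors 37 were tested and 0 passed, with a median log2 fold change of 0.03. The lowest adjusted p-values by edgeR were 0.100 for Ppargc1a (1.77), a coactivator of mitochondrial genes, and for Etv1 (0.78), 0.102 for Bach2 (1.46) and 0.128 for Nfia (0.66). Of 25 genes that the factors regulate, such as insulin, granule and ion channel genes, 24 were tested and 0 passed, with a median of 0.02. The lowest adjusted p-values by edgeR were 0.0906 for the prohormone convertase Pcsk1 (0.58), 0.114 for the granin Scg2 (0.45), 0.117 for the calcium channel subunit Cacna1c (0.61) and 0.143 for the cation channel Trpm5 (-0.66). Of 22 cofactors 21 were tested and 0 passed, with a median of -0.08, and the lowest adjusted p-values were 0.278 for Lmo1 (-0.77), 0.280 for Pbx2 (-0.33), 0.377 for Ldb1 (-0.39), the adaptor through which Isl1 acts, and 0.425 for the acetyltransferase Crebbp (0.31).

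Mutant 2 held beta-like cells with and without Atf4 RNA in 1 library, which allows no test. Among its cells over 8000 UMIs, 237 had no Atf4 UMI (median 15081 UMIs) and 140 had at least 3 (median 17937 UMIs). Pdx1 was at 187 CPM in cells with no Atf4 UMI and at 222 CPM in those with at least 3, a ratio of 0.843 (95% interval 0.756 to 0.940, counting error only). For Nkx6-1 the ratio was 0.865 (0.790 to 0.948) and for Isl1 0.857 (0.751 to 0.978). The intervals of the other 6 genes included 1, and Nkx2-2 had a ratio of 1.16 (0.992 to 1.36). These CPM are without TMM scaling, and the share of all genes with an interval that leaves out 1 was not computed. Insulin RNA differed too, with a ratio of 0.808 (0.804 to 0.812) for Ins1 and 1.117 (1.113 to 1.121) for Ins2. The cells also differed in sex, with 98 of the 237 and 2 of the 140 having Xist and no Y-linked UMIs, so Atf4 state and the mouse of origin cannot be told apart.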

How the data were processed

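The deposited matrices give the authors' UMI counts per gene symbol and barcode. Per the submitters' processing notes the genome build was mm10 and Seurat was used; the aligner and versions are not given in the sources used here. The files list genes with at least 1 count in that library, so a missing row was read as 0. No count of a gene in a cell exceeded 4093, near the 4096 sequences of a 6-base tag, which bears on insulin. The 10 genes, the lists, the limits and the tests were chosen with earlier results of these data known. Named genes are all 10, the 4 with the lowest p of each other list and the 3 most like each gene.

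Sums of the counts over the cells of a class in a sample were compared by edgeR 4.0.16 (under R 4.3.3; filterByExpr, TMM, quasi-likelihood F test, Benjamini-Hochberg over all tested genes, threshold 0.05), with the sample as a block between classes. Alternatives were other scalings, filters, tools (DESeq2 1.42.0, limma 3.58.1), cell limits, Leiden classes (scanpy 1.11.5), deep or single-sex cells, each sample left out, and replicate blocks. The fits were tested on simulated data whose changes were larger than the beta-like estimates of the factors. Recovery of changes as small as those estimates was not tested. Depth was 13706563 to 17655893 UMIs per library; intervals and the limit of 3 counts for a 0 cover counting error only. Deviations of same-numbered mutant and control samples from their group means had a correlation of r = -0.02 over 13605 genes. A single correlation cannot settle whether the numbers pair the samples. The main genotype fits used no replicate block, and a block by number was an alternative. Counts summed over all kept cells differed between replicates of a group beyond sampling noise. Their chi-square over its degrees of freedom was 14.8 between mutants and 17.7 between controls. These sums span all classes and so include differences in cell make-up, unlike the class sums that were fitted. Results for some marker genes are not reported here.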

Additional observations from a re-analysis of the deposited data

Results flagged for a closer look

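Isl1 in PP-like cells of control 2 stood at 320.7 CPM, while the other 3 samples lay close together, down to 203 CPM. It was picked out because its gap to the nearest sample filled most of the range of the 4 samples. In all 36 groups of 4 samples were examined this way, and chance picks out about 1 in 20. The PP-like sum of control 2 holds 12 cells.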

How the results depend on the processing

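In beta-like cells, 179 of 180 estimates of the 9 genes under 20 alternatives were below 0, with adjusted p between 0.115 and 1.00, and 0 of 9 were called in each. The exception was Pdx1, at 0.0242 with library totals. The number of all genes called (58) changed to 96 with library totals, 90 with hormone counts left out, 432 with no filter, 233 with DESeq2, 91 with hormone limits halved, 98 with Leiden clusters, 143 in cells with Xist and no Y-linked counts, 10 in cells with a Y-linked but no Xist count. Leaving out mutant 1 gave 28, mutant 2 121, control 1 451 and control 2 463. With the replicate number as a block it was 221, and 0 of 9 factors were called.

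With Leiden clusters as classes, Rfx6 turned to -0.13 (beta-like over PP-like) and -0.28 (alpha-like over PP-like), Neurod1 to -0.29 (alpha-like over PP-like) and Pdx1 to -0.24 (delta-like over PP-like). The number of factors called was then 1 instead of 4 for beta-like against PP-like and 3 instead of 5 for alpha-like against PP-like cells. It was 3 instead of 5 for delta-like against PP-like cells with hormone limits doubled and with the controls alone, 2 instead of 6 for alpha-like against delta-like cells with the controls alone, and 2 to 4 for alpha-like against PP-like cells when 1 sample was left out, lowest without control 1. The controls alone are 2 of the 4 samples. The cause of the other changes was not tested. Of 23 class differences that were not called, 17 changed sign under some alternative, among them Nkx6-1 between alpha-like and delta-like cells, which passed the threshold with Leiden clusters (adjusted p = 9.74e-07 by edgeR). At 1500 UMIs the mutant minus control share of cells moved to -1.72 points for Neurod1, 1.47 for Isl1, -2.05 for Pax6, -3.98 for Rfx6, -0.17 for Myt1 and -1.50 for Foxa2.

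Low counts limit Pdx1 and Nkx6-1 in alpha-like, delta-like and PP-like cells, where a sum holds 1 to 28 UMIs. Mafa has 4 UMIs in all beta-like cells, and the cause was not tested.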

Other observations

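Cells over more than 1 hormone limit, left out of every comparison, held Pdx1 at 129 and 126 CPM in the mutants and 119 and 138 CPM in the controls, and Nkx6-1 at 174 and 174 CPM in the mutants and 153 and 189 CPM in the controls, without scaling but the total. Both lie between the beta-like and alpha-like levels in all 4 samples. Mafa had 1 UMI in these 1495 cells.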
